A study of Saccharomyces cerevisiae with 4 samples.

Results

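The 36 genes described here are GCN4 and 35 genes for enzymes that make amino acids other than the sulfur amino acids, out of 5449 Saccharomyces cerevisiae genes measured on Affymetrix yeast arrays. They were chosen by name, not by a threshold on their values, but with earlier results of these data known. The enzymes were 5 genes of arginine synthesis, 5 of histidine, 7 of lysine, 10 of the branched-chain amino acids and 8 of the aromatic amino acids. Each of the 36 had 1 probe set, and none of these carried the suffixes that mark shared probes. The treated group was W1588-4c yeast given 0.4 mM allyl alcohol for 3 h once the culture had reached an optical density of about 1, and the other group was the same strain at that density without allyl alcohol, with 2 arrays from independent experiments in each group. The sources used here give no added growth time for the untreated cultures, so a difference in growth time, if any, cannot be told apart from treatment. All cultures were haploid MATa and RAD5+, grown at 30 °C in synthetic complete medium with 2% glucose. They carried mutant alleles in the histidine (his3-11,15), tryptophan (trp1-1) and leucine (leu2-3, 112) pathways themselves, in genes that are not among the 36, and a medium of this kind supplies those amino acids. The arginine permease allele was can1-100, and the purine and pyrimidine synthesis alleles were ade2-1 and ura3-1.

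Gcn4 is a transcription factor that binds upstream of genes in many amino acid pathways and activates them together, a response known as general amino acid control. When uncharged tRNA builds up, the kinase Gcn2 phosphorylates the initiation factor eIF2, and short upstream reading frames in the GCN4 leader then let more ribosomes reach the GCN4 reading frame. Much of the control of GCN4 is thus on translation, which an array of transcripts does not measure. Many of the pathways also have regulators of their own, such as Leu3 for branched-chain, Lys14 for lysine and the Arg80, Arg81 and Mcm1 proteins for arginine genes. Alcohol dehydrogenases turn allyl alcohol into acrolein, an aldehyde that reacts with thiols.

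Values are log2 signals, for which a difference of 1 is 2-fold, and arrays of a group are always given as replicate 1 and then replicate 2. Between 97.45% and 99.43% of all genes, and 36 of the 36, lay above background on every array, where background is the 95th percentile of probe sets whose names lie outside the S. cerevisiae gene table. The arrays went against their labels. Across the 5449 genes, which are not independent replicates, Pearson's r was 0.740 between the allyl alcohol arrays and 0.757 between the untreated arrays, but 0.996 between allyl alcohol replicate 2 and untreated replicate 1 and 0.991 between allyl alcohol replicate 1 and untreated replicate 2. Samples are therefore called by their labels throughout, differences between the labels are also given without single arrays, and every direction is that of the labels. These files cannot tell a difference between replicate cultures from an exchange of labels or columns between 2 arrays. With such an exchange, no difference between the labels below, and no count of 0 calls, would describe the effect of allyl alcohol. The a-specific genes expected of MATa cells (STE2, STE6, BAR1, MFA1, MFA2 and AGA2, 6 of 6 measured) had median signals of 10.76 and 12.69 on the allyl alcohol arrays, against 12.74 and 10.71 on the untreated arrays. The alpha-specific genes STE3, MF(ALPHA)1 and MF(ALPHA)2 had 8.55 and 9.0, against 9.08 and 8.66, above background as well; gene by gene, their median difference, replicate 2 minus replicate 1, ran the other way, at -0.82 inside allyl alcohol and 0.57 inside untreated. Bacterial poly-A control RNA added at labelling had medians of 9.37 and 8.08, against 8.21 and 9.0. Hybridisation controls differed less, with medians of 9.48 and 9.37, against 9.17 and 9.31. The 3' minus 5' log2 difference of the ACT1 control probe sets was 0.22 and 0.18, against 0.19 and 0.27. The mating-type markers and the poly-A controls differ between the same arrays as the amino acid genes below, and their part in those values was not tested. In a bulk culture, fewer cells that express a gene and less of its RNA per cell cannot be told apart.

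Allyl alcohol against untreated asks which of these genes differ after the exposure. By the labels none of the 36 passed the test. In limma, fitted over all 5449 genes with Benjamini-Hochberg adjustment, 0 of the 36 genes passed an adjusted p of 0.05, each had an adjusted p of 1, and 0 had an unadjusted p under 0.05; the smallest was 0.435. Over all genes tested, 0% were called, and 0 had an unadjusted p under 0.05 in limma, the smallest being 0.218. The gaps between arrays of one label enter the standard errors, so these counts do not show that the genes were unchanged. The log2 differences, allyl alcohol minus untreated, lay between -0.29 and 0.42 with a median of 0.02, beside a median of -0.02 over all genes, and 20 were above 0 and 16 below. Their standard errors, which limma moderates with the spread of all genes, were 0.31 to 1.59, and the 95% interval covered 0 for 36 of 36 genes. The smallest standard error over all genes was also 0.31. A gene with close arrays therefore has a standard error set largely by the gaps of other genes. With 2 arrays against 2, a two-sided exact permutation test has a smallest possible p of 0.333, so no single gene could pass it. The groups did not overlap for 2 of the 36 genes, ARO2 (higher in allyl alcohol samples, as for 1.89% of all genes) and BAT2 (lower, as for 3.34%), together beside 5.23% of all genes.

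For many of the genes a high array and a low array stood under the same label. For 30 of the 36 genes both cross-label combinations (allyl alcohol replicate 1 with untreated replicate 2, and allyl alcohol replicate 2 with untreated replicate 1) were closer than the arrays of either label were to each other. Over all genes this share was 79.5%. Between the arrays of a label, 17 of the 36 genes were at least 2-fold apart in both labels (34.4% of all genes were), 18 were under 2-fold in both, and 1, HIS5, passed 2-fold in allyl alcohol only. Of the 17, 14 were higher on allyl alcohol replicate 2 and untreated replicate 1, where the share over all genes was 15.8%, and 3 were higher on allyl alcohol replicate 1 and untreated replicate 2, where it was 18.6%. These are differences between single arrays of one label and carry no test.

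**Figure D1:**
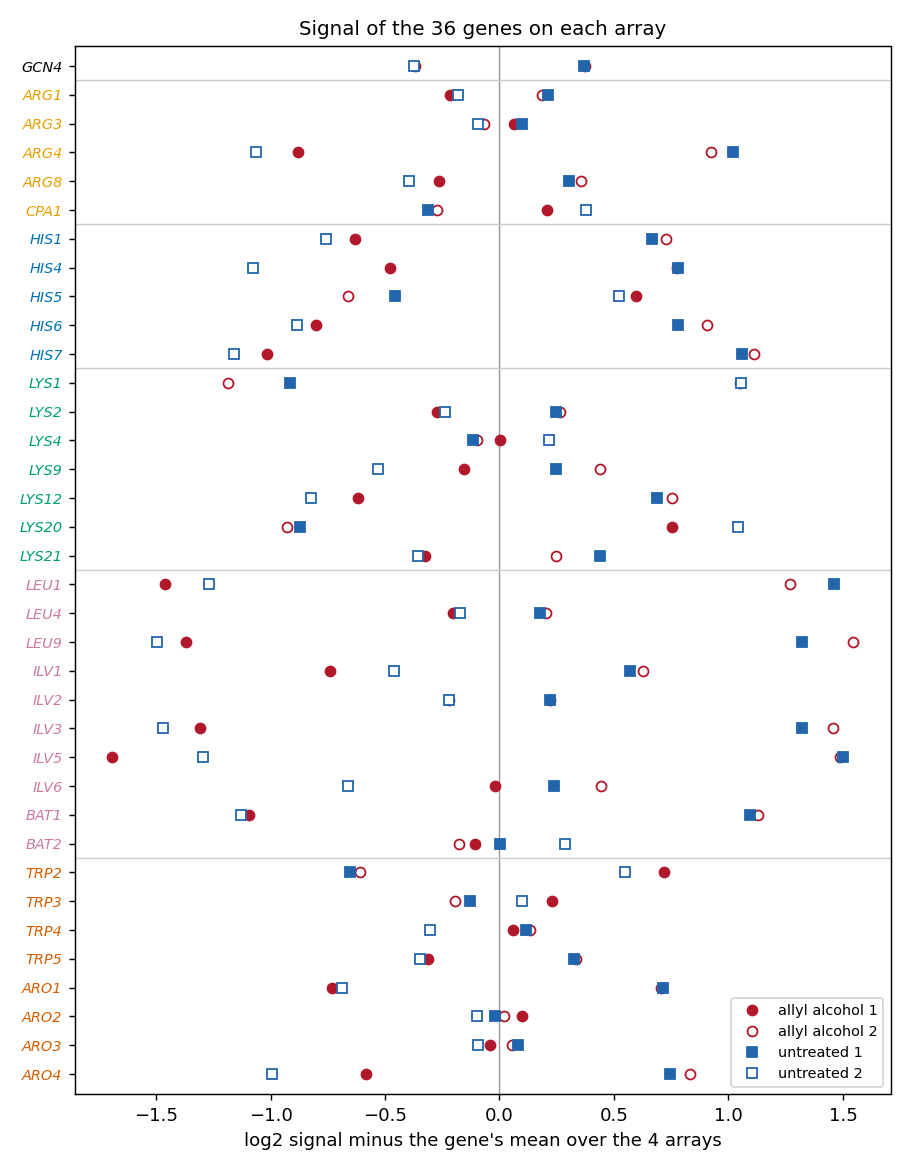
Each row is a gene, and the points are its log2 signal on each array minus its own mean over the 4 arrays, with allyl alcohol arrays as circles and untreated arrays as squares (filled for replicate 1, open for replicate 2). For 30 of the 36 genes the filled circle with the open square, and the open circle with the filled square, lie closer than the 2 circles or the 2 squares do. The same holds for 79.5% of all genes. BAT2 and ARO2 are the 2 genes whose labelled groups do not overlap, as for 5.23% of all genes.

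GCN4 itself was high on 1 array of each label. Its signal was 13.02 and 13.76 on the allyl alcohol arrays, against 13.75 and 13.01 on the untreated arrays. Allyl alcohol replicate 2 and untreated replicate 1 were the high arrays, and the groups overlapped almost completely. The group means were 13.39 ± 0.53 in allyl alcohol and 13.38 ± 0.53 in untreated samples (SD, n = 2 each), a log2 difference of 0.01 with a 95% interval of -1.42 to 1.43. Leaving out 1 array at a time moved this difference between -0.37 and 0.38. The gap inside a label was 1.68-fold in allyl alcohol and 1.67-fold in untreated samples, which is smaller than that of the 17 genes above.

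The 5 arginine genes had a median log2 difference of 0.00 between the labels, none called, with values from -0.07 to 0.09. Inside the labels they split. ARG4, argininosuccinate lyase, which forms arginine in the last step, had 11.74 and 13.55 in allyl alcohol samples, against 13.64 and 11.56 in untreated samples. Its low and high arrays were 3.50-fold apart in allyl alcohol and 4.24-fold in untreated, the widest gap in this pathway. ARG1, argininosuccinate synthase, which acts just before it, had 13.34 and 13.75, against 13.77 and 13.38, in the same array order but only 1.32-fold and 1.31-fold apart. ARG8, the mitochondrial acetylornithine aminotransferase, had 11.57 and 12.19, against 12.14 and 11.44. ARG3, ornithine carbamoyltransferase, had 11.99 and 11.86, against 12.02 and 11.83. Its 4 arrays lay within 0.19 of each other. CPA1, the small subunit of the carbamoyl phosphate synthetase that feeds this pathway, was high on the opposite arrays, with 13.47 and 12.99 in allyl alcohol samples, against 12.95 and 13.64 in untreated samples.

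Histidine genes had a median log2 difference of 0.10 between the labels, from -0.07 to 0.30, none called, and wide gaps inside them. HIS1, the ATP phosphoribosyltransferase of the first step, had 12.13 and 13.49 in allyl alcohol samples, against 13.43 and 12.01 in untreated samples. HIS4, an enzyme with several activities of the pathway, had 11.86 and 13.11, against 13.12 and 11.26. HIS7, the imidazole glycerol phosphate synthase, had 8.84 and 10.96, against 10.91 and 8.69. HIS6, the isomerase before it, had 8.18 and 9.89, against 9.76 and 8.10. All 4 were high on allyl alcohol replicate 2 and untreated replicate 1, and between 2.38-fold and 4.65-fold apart inside a label. HIS5, histidinol-phosphate aminotransferase, was high on the other arrays, with 12.65 and 11.39 in allyl alcohol samples, against 11.60 and 12.58 in untreated samples. The HIS4 difference of 0.30 (standard error 0.88) was the widest of the pathway, and without single arrays it lay between -0.63 and 1.23.

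**Figure D2:**
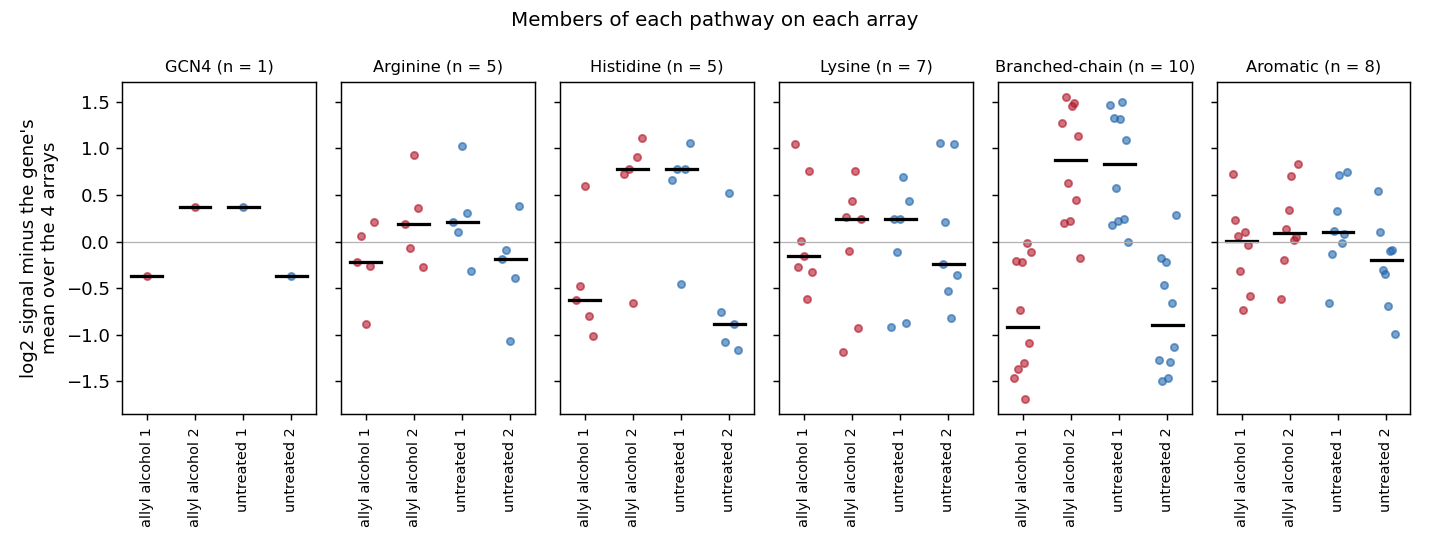
Panels show GCN4 and the 5 pathways; each point is a gene's log2 signal on an array minus its own mean over the 4 arrays, and the black line is the median of the panel's genes (allyl alcohol arrays in red at the left, untreated arrays in blue at the right). The branched-chain medians are -0.92 and 0.88 on the allyl alcohol arrays and 0.83 and -0.89 on the untreated arrays, while the aromatic medians, over genes that go both ways, lie between -0.20 and 0.10.

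The lysine genes went both ways inside the labels. LYS1, the saccharopine dehydrogenase that forms lysine in the last step, had 13.34 and 11.11 in allyl alcohol samples, against 11.37 and 13.34 in untreated samples. LYS20, a homocitrate synthase of the first step, had 12.53 and 10.85, against 10.90 and 12.82. These were high on allyl alcohol replicate 1 and untreated replicate 2, with gaps of 4.70-fold and 3.92-fold for LYS1 and 3.21-fold and 3.77-fold for LYS20 in allyl alcohol and untreated samples. LYS21, the other homocitrate synthase, had its high arrays the other way round, with 11.39 and 11.96 in allyl alcohol samples, against 12.15 and 11.36 in untreated samples. LYS12, homoisocitrate dehydrogenase, had 11.07 and 12.44, against 12.38 and 10.87. LYS9, the saccharopine dehydrogenase that acts just before Lys1, had 11.16 and 11.76, against 11.57 and 10.79. Thus the enzymes of the last steps, LYS9 and LYS1, stood high on different arrays, as did the 2 isoenzymes of the first step. LYS2, aminoadipate reductase, had 10.95 and 11.49, against 11.47 and 10.98. LYS4, homoaconitase, had 10.95 and 10.85, against 10.83 and 11.16. Between the labels the 7 genes had a median log2 difference of -0.08, from -0.17 for LYS20 to 0.28 for LYS9, none called.

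Branched-chain genes held the widest gaps of the 36. Isoleucine and valine are made by shared enzymes, and leucine branches off from the valine precursor. ILV5, the reductoisomerase, had 10.53 and 13.71 in allyl alcohol samples, against 13.72 and 10.93 in untreated samples. ILV3, the dihydroxyacid dehydratase after it, had 10.53 and 13.30, against 13.16 and 10.37. LEU1, the isopropylmalate isomerase of the leucine branch, had 10.14 and 12.87, against 13.07 and 10.34. All 3 were high on allyl alcohol replicate 2 and untreated replicate 1. Their gaps ran from 6.62-fold for LEU1 in both labels to 9.03-fold for ILV5 in allyl alcohol. ILV3 and LEU1 encode iron-sulfur enzymes, as does LYS4 of the lysine pathway, while ILV5 does not. The LYS4 arrays were only 1.07-fold apart in allyl alcohol and 1.26-fold in untreated samples. A link between this cofactor and the gaps was not tested.

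Isoenzymes and subunits of the branched-chain pathways differed from each other in these gaps. LEU9, an isopropylmalate synthase, had 7.90 and 10.82 in allyl alcohol samples, against 10.59 and 7.78 in untreated samples, 7.55-fold and 7.03-fold apart. LEU4, the main isopropylmalate synthase, had 13.13 and 13.54, against 13.51 and 13.16, 1.33-fold and 1.28-fold apart. BAT1, the mitochondrial branched-chain aminotransferase, had 11.43 and 13.65, against 13.61 and 11.39, a gap of 4.66-fold in both labels. BAT2, its cytosolic counterpart, had 11.79 and 11.72, against 11.89 and 12.18, a gap of 1.05-fold and 1.22-fold. ILV1, threonine deaminase of the isoleucine branch, had 11.22 and 12.59, against 12.53 and 11.50. The acetolactate synthase subunits ILV2 and ILV6 were closer: ILV2, the catalytic one, had 12.32 and 12.76, against 12.77 and 12.32. ILV6, the regulatory one, had 12.65 and 13.11 in allyl alcohol samples, against 12.90 and 12.01 in untreated samples.

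Between the labels, the 10 branched-chain genes had a median log2 difference of 0.00, and they held both ends of the range of all 36. ILV6 had the most positive one, 0.42 (standard error 0.48, 95% interval -0.97 to 1.81), with overlapping groups. BAT2 had the most negative one, -0.29 (moderated standard error 0.33, 95% interval -1.23 to 0.66). Its groups, with SDs of 0.05 in allyl alcohol and 0.20 in untreated samples, did not overlap. Neither was called, with an adjusted p of 1 in limma. The difference of BAT2 stayed negative without any single array, between -0.43 and -0.14, while that of ILV6 lay between -0.03 and 0.87. For ILV5 the same range was -1.79 to 1.38 around a difference of -0.21, the widest of the 36.

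**Figure D3:**
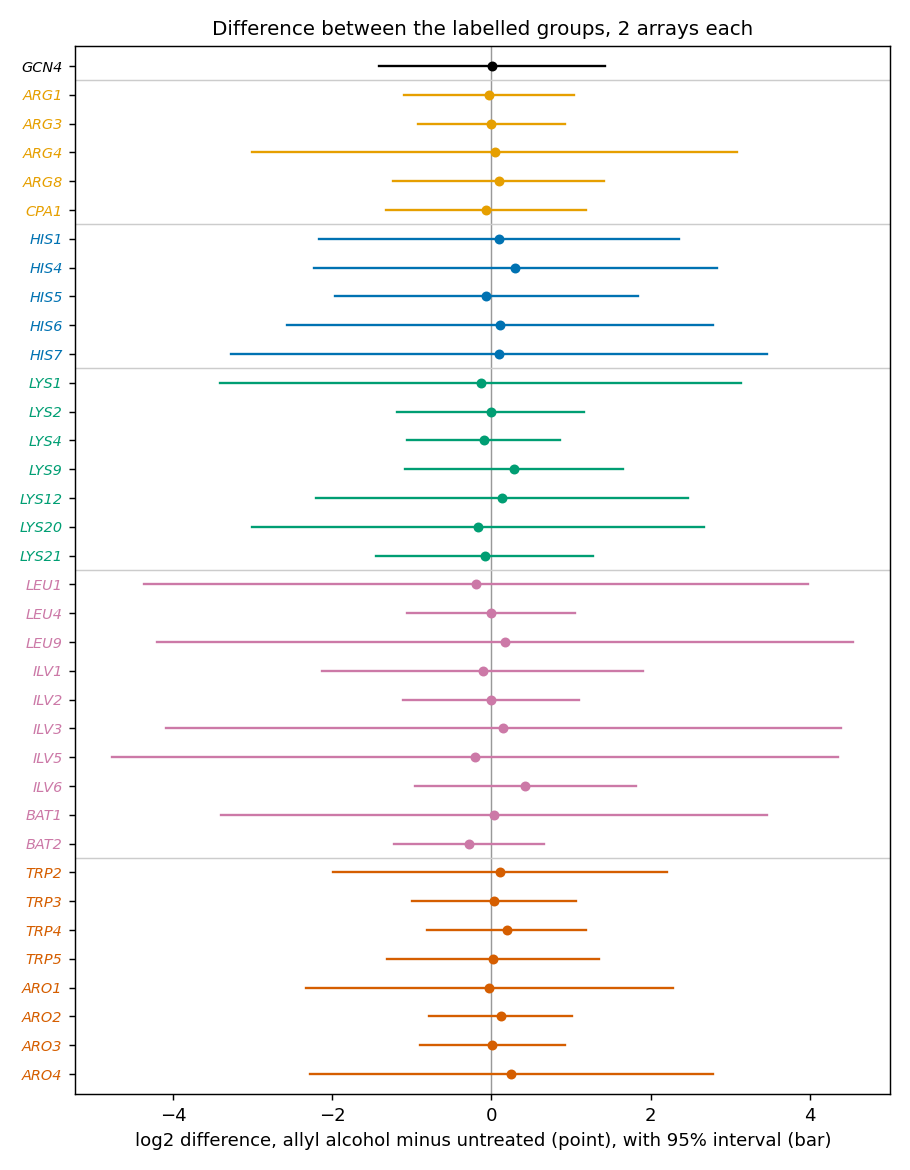
Rows are the 36 genes; points are log2 differences, allyl alcohol minus untreated, and bars are 95% intervals from limma with 2 arrays in each group. All 36 intervals cover 0, and the widest belong to ILV5, LEU9, ILV3 and LEU1.

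The aromatic genes had small gaps between arrays of a label, apart from 3 of the 8. ARO3 and ARO4 encode the isoenzymes of the first step, inhibited by phenylalanine and by tyrosine. ARO3 had 12.86 and 12.96 in allyl alcohol samples, against 12.99 and 12.81 in untreated samples, and ARO4 had 11.90 and 13.31, against 13.23 and 11.49. The ARO4 arrays were thus 2.67-fold and 3.34-fold apart inside the labels and those of ARO3 1.07-fold and 1.13-fold. ARO1, the enzyme that carries several consecutive steps to chorismate, had 11.76 and 13.20, against 13.20 and 11.80. ARO2, chorismate synthase, had 12.68 and 12.61, against 12.57 and 12.49, and its groups did not overlap. Its difference of 0.12 (moderated standard error 0.31) was not called. The ARO2 arrays were close, with SDs of 0.06 in allyl alcohol and 0.05 in untreated samples. That standard error thus reflects mainly the spread of other genes. HIS7 and ARO4 are immediate neighbours in the RefSeq gene order, and both stood high on allyl alcohol replicate 2 and untreated replicate 1. ILV1 and TRP2, with 4 genes between them, stood high on opposite arrays. Any part of gene position was not tested.

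The tryptophan branch showed no common order of arrays. TRP2, the anthranilate synthase subunit that starts it, had 13.54 and 12.21 in allyl alcohol samples, against 12.17 and 13.37 in untreated samples, 2.52-fold and 2.30-fold apart. Its partner TRP3 had the same high arrays with a smaller gap, 11.79 and 11.37, against 11.44 and 11.66. TRP5, tryptophan synthase of the last step, was high on the opposite arrays, with 12.54 and 13.19, against 13.18 and 12.51. TRP4, the phosphoribosyltransferase after anthranilate, had 11.90 and 11.98, against 11.96 and 11.54. Between the labels the 8 aromatic genes had a median log2 difference of 0.07, from -0.03 to 0.25, none called.

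Set side by side, the median size of the gap between arrays of one label, whatever its direction, was 1.79 inside allyl alcohol and 1.63 inside untreated for the branched-chain genes, 1.36 and 1.66 for histidine, 0.60 and 0.79 for lysine, 0.48 and 0.69 for arginine, and 0.54 and 0.55 for aromatic genes, on the log2 scale. Over all genes it was 0.81 and 0.75, above the arginine and aromatic values in both labels. With its sign, the median log2 difference, replicate 2 minus replicate 1, was 1.79 inside allyl alcohol and -1.63 inside untreated for the branched-chain genes, 1.36 and -1.66 for histidine, 0.54 and -0.48 for lysine, 0.40 and -0.39 for arginine, and 0.09 and -0.30 for aromatic genes. Over all genes, which went both ways, the signed median was 0.00 and 0.04. The count of genes at least 2-fold apart in both labels was 6 of 10, 4 of 5, 3 of 7, 1 of 5 and 3 of 8 in that order of pathways. Over all genes the share was 34.4%, and these small counts carry no test. All 6 branched-chain and 4 histidine genes, with ARG4, LYS12, ARO1 and ARO4, were high on allyl alcohol replicate 2 and untreated replicate 1. The 3 with the opposite order were LYS1, LYS20 and TRP2.

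**Figure D4:**
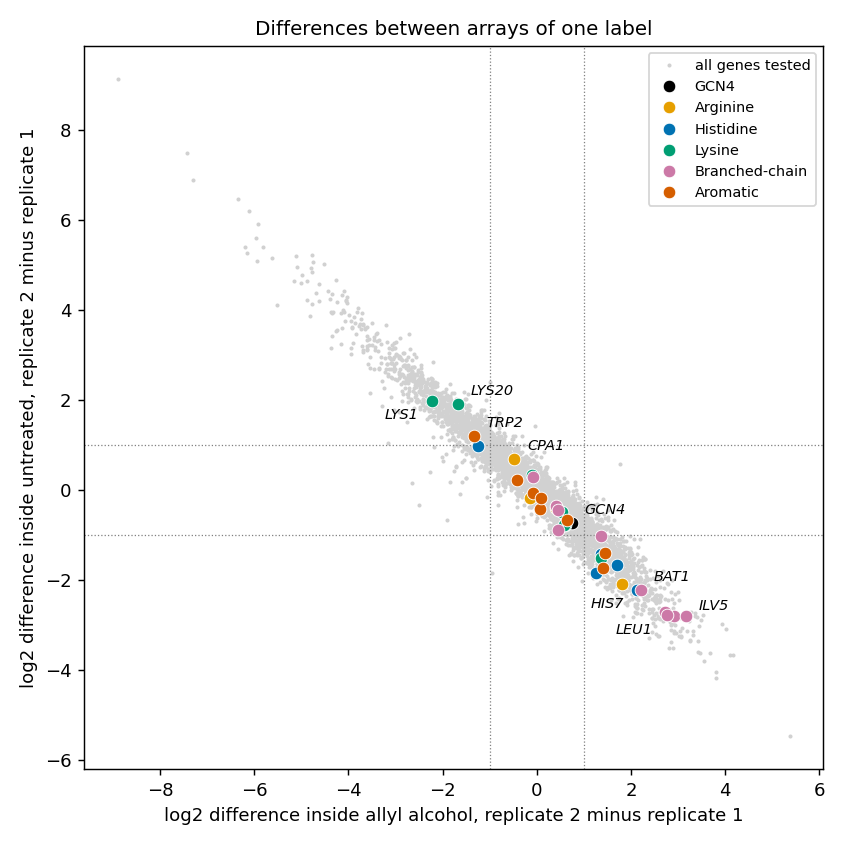
Each point is a gene, placed by its log2 difference between replicate 2 and replicate 1 inside allyl alcohol (horizontal) and inside untreated (vertical); grey points are all 5449 genes, and dotted lines mark 2-fold. The coloured genes lie along the same falling band as the grey ones, with 14 beyond 2-fold at the lower right and 3 at the upper left.

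A further 11 enzymes of the 5 pathways were analysed. The median log2 difference of these 11 between the labels was 0.02, and none was called. Of them, 2 were at least 2-fold higher on allyl alcohol replicate 2 and untreated replicate 1 (15.8% of all genes). On the other arrays 2 were higher (18.6% of all genes). The median difference of the 11, replicate 2 minus replicate 1, was -0.25 inside allyl alcohol and -0.15 inside untreated, beside 0.58 and -0.72 for the 36 genes. The 3 described were those with the largest gap between the untreated arrays. The aromatic aminotransferase gene ARO9 had 12.41 and 10.38 in allyl alcohol samples, against 10.69 and 12.54 in untreated samples. LEU2 had 10.34 and 11.90, against 11.89 and 10.15, the array order of LEU1 and LEU9, although the strain carries a mutant allele of it. HIS2, histidinol phosphatase, had 9.88 and 11.52, against 11.58 and 9.92.

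Synthesis of other amino acids was represented by 19 genes, none called, with a median log2 difference of 0.05 between the labels. In both labels 5 were at least 2-fold higher on allyl alcohol replicate 2 and untreated replicate 1 and 1 on the other arrays. The shares over all genes were 15.8% and 18.6%. GDH1, the glutamate dehydrogenase that assimilates ammonium, had 11.31 and 13.83 in allyl alcohol samples, against 13.86 and 10.82 in untreated samples. GLN1, glutamine synthetase, had 11.02 and 13.29, against 13.35 and 11.54, and PRO3, of proline synthesis, had 11.90 and 13.35, against 13.34 and 11.46.

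Genes that act in the control of Gcn4 or with it were called in 0 of 15 cases, with a median log2 difference of -0.02 between the labels. GCN2, the eIF2 kinase, had 8.50 and 10.13 in allyl alcohol samples, against 10.24 and 8.99 in untreated samples. PCL5, a cyclin that promotes Gcn4 breakdown and is itself a Gcn4 target, had 9.30 and 10.62, against 10.88 and 9.45, the array order of GCN4. GCN5, the acetyltransferase of a coactivator complex, had 9.08 and 10.07, against 9.92 and 8.28. The other 12 were under 2-fold apart in both labels, as were 3030 of all 5449 genes.

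Among 9 regulators of single pathways, also none called, 3 were at least 2-fold higher on allyl alcohol replicate 1 and untreated replicate 2 in both labels and 0 on the other arrays. The shares over all genes were 18.6% and 15.8%, and counts among 9 genes carry no test. PHO2, a partner of Bas1 at HIS4, had 11.28 and 9.82 in allyl alcohol samples, against 9.75 and 11.20 in untreated samples. ARO80, the activator of ARO9, had 9.59 and 8.37, against 8.31 and 9.72, the array order of ARO9. ARG82, an inositol polyphosphate kinase needed for arginine control, had 10.29 and 8.81, against 8.94 and 10.12. LEU3 had 8.91 and 8.74, against 8.66 and 8.96, and LYS14 had 9.78 and 9.70, against 9.59 and 9.70, with gaps of at most 0.30 inside a label. BAS1, drawn together with LEU3 and LYS14, had 8.72 and 9.28 in allyl alcohol samples, against 9.11 and 8.89 in untreated samples. Its difference, replicate 2 minus replicate 1, was 0.56 inside allyl alcohol and -0.21 inside untreated. LEU3, LYS14 and BAS1 were chosen after their values were seen.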

How the data were processed

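The deposited log2 values are RMA signals for each probe set and array, made by the authors with RMA and Affymetrix Expression Console, per the submitters' processing notes; the sources used here give no version or settings. A log2 scale was inferred from their range, 2.78 to 14.75. RMA gives all arrays a common distribution, which hides part of any shift in total mRNA. Scanner files and scan dates were not used here. Of 10928 probe sets, 7244 had 1 gene in the platform annotation, 1 had several and 3683 had none; 5498 matched the RefSeq table of assembly R64, giving 5449 genes, with the brightest probe set where a gene had several.

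Groups followed the labels. The comparison of allyl alcohol with untreated used limma 3.58.1 and R 4.3.3 (lmFit, eBayes, two-sided, no block, Benjamini-Hochberg over all genes at 0.05), tested first on simulated data. The simulated spread inside a group was smaller than that of many of the 36 genes, so the simulation does not show how the fit performs on those. Whether the label numbers pair the arrays was checked by the correlation of same-numbered arrays' deviations across genes, which was -0.973. An exchange of labels would also give a strongly negative value, so this check cannot decide whether the experiments were paired. All 36 genes are named; from each further list the 3 genes with the largest gap between the untreated arrays are named, beside those said to be chosen otherwise. The genes, lists and rule were chosen with earlier results of these data known. No genome build is named for the array, so no coordinates are given. The number of arrays and the gaps between arrays of one label limit the precision. The limma p-values set the difference between the labels against the spread between these arrays, moderated over all genes.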

Additional observations from a re-analysis of the deposited data

How the results depend on the processing

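The number of genes called in limma was 0 among all genes and 0 among the 36 under every setting run: quantile normalization anew, median centring, the mean of a gene's probe sets, leaving out dim genes or shared probe sets, an intensity trend, all probe sets tested, and each array left out. With the replicate number as a block it was 0 as well, and 0 genes had an unadjusted p under 0.05. A crossed replicate block, added after seeing the data, paired allyl alcohol replicate 1 with untreated replicate 2 and allyl alcohol replicate 2 with untreated replicate 1. With it 0 genes were called, and 188 of all genes and 1 of the 36 had an unadjusted p under 0.05 in limma. These pairs were taken from the same values for being alike, which removes the gaps inside a label by construction. The 188 and the 1 are therefore no support for a difference. Without single arrays the median difference of the 36 lay between -0.26 and 0.39, that of the lysine genes between -0.10 and 0.23 and that of the aromatic genes between -0.048 and 0.26; for branched-chain genes it was -0.93 to 1.01, for histidine -0.63 to 0.94 and for arginine -0.23 to 0.17. The count of genes whose groups do not overlap was 13 to 25 with 1 array left out, against 2 with all arrays. With 1 array left out, 2 arrays face 1, and the lone array is assumed to vary like the others. Such groups separate by chance more readily than 2 arrays against 2, and no share over all genes is given for them. The higher counts are therefore not a finding about these 36 genes. The difference between the labels changed sign with the array left out for 34 of the 36 genes, the exceptions being BAT2 and ARO2. Under the settings that keep all arrays, the counts of 2 genes with separate groups and of 17 with gaps of 2-fold or more under both labels were the same, and no pathway median or difference of one of the 36 genes moved by as much as the spread between arrays of a label. With 2 arrays in each group, the median half-width of a 95% interval was 1.66 for the 36 genes.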
